A study of Homo sapiens with 4 samples.

Results

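The 250 ZNF genes of chromosome 19 are the protein-coding genes of a RefSeq table of GRCh38.p14 that lie on this chromosome and whose symbol starts with ZNF and a digit, out of 20037 protein-coding genes on chromosomes 1 to 22, X and Y. ATAC-seq, which marks open DNA by cuts of the Tn5 transposase, was done on 786-O, an established line of human clear cell renal cell carcinoma that lacks functional VHL. The groups were cells given 5 µM ACSS2i, named for ACSS2, the enzyme that makes acetyl-CoA from acetate, and cells given DMSO as vehicle, each for 24 h and with 2 libraries. The series asked which accessible regions differ after ACSS2i. Both groups are the same single line, and no label says that the 2 libraries of a group came from separate cultures, so the spread between them may be technical.

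Most of these genes encode proteins with tandem C2H2 zinc fingers, many of them joined to a KRAB domain. A KRAB domain binds TRIM28, which brings the histone methyltransferase SETDB1 and heterochromatin proteins to the bound DNA, and many KRAB zinc finger proteins silence transposable elements in this way. The genes arose by repeated local duplication and stand in clusters on chromosome 19, where the finger-coding 3′ exons are known to carry the repressive mark H3K9me3 while the promoters can stay open. Because the copies resemble each other, reads can match several of them, and no source used here says how such reads were handled.

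A gene was counted as having a gene-end peak in a library when a deposited peak lay within 1000 bp of either end of its span. Of the 250 members, 239 fell into 9 clusters of at least 5 members with no gap over 1 Mb, and the other 11 stood alone or in smaller runs. The 2 kinds of pattern that the results turn on are shown here by the promoters of strongly accessible members: 4 that had a peak in all 4 libraries and 3 seen in the pair of DMSO libraries but in neither ACSS2i library. Each line holds the 250 bases before the annotated start (RefSeq, GRCh38.p14), 5′ to 3′ on the strand of the gene, and capitals mark 9 short words on either strand. These are GGGCGG for the Sp and KLF factors, CCAAT for NF-Y, CCGGAAG for ETS factors, ACGTG for HIF and E-box factors, TGANTCA for AP-1, GCATGCG for NRF1, AAGATGG for YY1, CGCGAGA for a word of the ZBTB33 type and TATAAA for the TATA box. N is any base, so TGANTCA is wider than the AP-1 consensus TGAGTCA or TGACTCA. It also takes in TGAATCA, the stretch marked in ZNF564.

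The 4 promoters of members with a peak in all 4 libraries were those of ZNF564 (chr19:12551483-12551732, minus strand), ZNF584 (chr19:58408399-58408648, plus strand), ZNF823 (chr19:11738947-11739196, minus strand) and ZNF441 (chr19:11766750-11766999, plus strand).
ZNF564: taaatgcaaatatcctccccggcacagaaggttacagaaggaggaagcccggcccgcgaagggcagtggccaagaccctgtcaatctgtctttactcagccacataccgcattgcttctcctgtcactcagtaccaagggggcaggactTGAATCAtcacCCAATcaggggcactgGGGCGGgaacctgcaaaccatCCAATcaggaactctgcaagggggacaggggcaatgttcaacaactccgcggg
ZNF584: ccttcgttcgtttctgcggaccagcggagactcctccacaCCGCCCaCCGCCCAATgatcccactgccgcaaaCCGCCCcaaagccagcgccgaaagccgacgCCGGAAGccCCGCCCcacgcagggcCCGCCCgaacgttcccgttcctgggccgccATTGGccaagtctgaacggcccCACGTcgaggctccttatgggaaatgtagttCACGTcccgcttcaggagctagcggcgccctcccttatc
ZNF823: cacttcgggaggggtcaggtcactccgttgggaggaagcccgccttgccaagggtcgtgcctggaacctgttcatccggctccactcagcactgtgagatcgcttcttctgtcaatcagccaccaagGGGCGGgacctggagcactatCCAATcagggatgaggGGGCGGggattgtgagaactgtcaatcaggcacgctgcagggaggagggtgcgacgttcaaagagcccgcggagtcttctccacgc
ZNF441: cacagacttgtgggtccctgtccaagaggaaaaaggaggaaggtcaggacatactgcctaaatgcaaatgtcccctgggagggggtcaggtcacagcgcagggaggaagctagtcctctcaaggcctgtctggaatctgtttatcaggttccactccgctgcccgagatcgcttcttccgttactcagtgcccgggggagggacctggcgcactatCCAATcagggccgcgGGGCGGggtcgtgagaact

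The 3 promoters of members with a peak in the DMSO libraries alone were those of ZNF607 (chr19:37719762-37720011, minus strand), ZNF865 (chr19:55605397-55605646, plus strand) and ZNF235 (chr19:44305026-44305275, minus strand).
ZNF607: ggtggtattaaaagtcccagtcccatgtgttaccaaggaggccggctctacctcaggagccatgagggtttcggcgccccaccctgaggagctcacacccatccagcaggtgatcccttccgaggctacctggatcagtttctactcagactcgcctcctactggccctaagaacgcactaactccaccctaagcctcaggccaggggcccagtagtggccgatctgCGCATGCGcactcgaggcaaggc
ZNF865: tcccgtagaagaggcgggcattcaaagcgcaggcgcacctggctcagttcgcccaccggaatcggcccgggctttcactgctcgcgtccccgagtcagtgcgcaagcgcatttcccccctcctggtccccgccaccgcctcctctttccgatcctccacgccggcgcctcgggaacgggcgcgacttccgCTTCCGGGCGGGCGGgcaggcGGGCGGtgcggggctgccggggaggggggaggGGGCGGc
ZNF235: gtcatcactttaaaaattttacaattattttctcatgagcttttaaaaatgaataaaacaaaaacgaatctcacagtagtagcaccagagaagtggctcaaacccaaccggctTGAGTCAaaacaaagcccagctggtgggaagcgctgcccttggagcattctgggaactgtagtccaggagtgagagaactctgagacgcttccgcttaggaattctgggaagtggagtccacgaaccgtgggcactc

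ZNF823 and ZNF441 are neighbours, and the longest run of bases common to their printed promoters was gcactatccaatcaggg, 17 bases around the word CCAAT. No other pair of the 7 shared more than 12. The summits lay -105 and -100 bp from the start of ZNF823 in the ACSS2i libraries and -61 and -27 bp in the DMSO libraries, where a minus sign means upstream. At ZNF584 the listed start lay 7091 bp inside the span, and its peaks stood at the lower end of the span, with summits -7348 and -7312 bp from that start in ACSS2i and -7292 and -7322 bp in DMSO. ZNF865 had the most CpG steps of the 7 with 32, and ZNF235 the fewest with 7, so the lost promoters held both extremes.

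Fewer members had a gene-end peak after ACSS2i. Such a peak was present at 87 (34.8%) and 122 (48.8%) of the 250 members in ACSS2i replicates 1 and 2, against 167 (66.8%) and 192 (76.8%) in DMSO replicates 1 and 2. Both ACSS2i counts lay below both DMSO counts, with means of 104.5 ± 24.7 in ACSS2i and 179.5 ± 17.7 in DMSO (SD, n = 2 each), a ratio of 0.582. The two-sided exact permutation p was 0.3333, the smallest that 2 against 2 libraries allow. In bulk chromatin, fewer cells with an open site and less opening per cell cannot be told apart.

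The lists themselves differed in length, and the member counts moved with them. The lists held 16400 and 22044 peaks in ACSS2i and 34696 and 50294 in DMSO, and the mean ratio of peaks was 0.452. Other protein-coding genes of chromosome 19 had gene-end peaks at 352 and 387 of 1201 genes in ACSS2i and at 576 and 665 in DMSO, a ratio of 0.595 that is close to that of the members. Over all protein-coding genes the ratio was higher, at 0.651. When every list was reduced to its 16400 strongest peaks, members with a peak numbered 87 and 98 in ACSS2i and 95 and 91 in DMSO, and the groups overlapped (exact permutation p = 1.00). A difference in peak number common to all genes cannot be seen in lists made equally long.

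In each of the 4 libraries a larger share of members than of their chromosomal neighbours was accessible. The share in members against other chromosome 19 genes was 34.8% against 29.3% in ACSS2i replicate 1, 48.8% against 32.2% in ACSS2i replicate 2, 66.8% against 48.0% in DMSO replicate 1 and 76.8% against 55.4% in DMSO replicate 2. Over all protein-coding genes the shares were 32.5% and 40.7% in ACSS2i and 52.6% and 59.95% in DMSO. The higher share was not particular to chromosome 19. Peaks in both DMSO libraries were present at 70.4% of the 267 ZNF genes of other chromosomes, 52.3% of all genes and 66.8% of members. Their peaks were nevertheless of middling rank: the median percentile of −log10 q within the library was 49.6 and 53.2 in ACSS2i and 59.5 and 65.2 in DMSO for members, and 59.5 and 56.5 in ACSS2i and 65.7 and 70.7 in DMSO for other chromosome 19 genes. The percentile runs from near 0 for the weakest peak of a list to 100 for the strongest. By fold enrichment over local background the members were not lower. Their median fold was 5.12 and 4.81 in ACSS2i and 6.64 and 9.43 in DMSO. For other chromosome 19 genes it was 5.05 and 4.24 in ACSS2i and 6.12 and 7.67 in DMSO.

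**Figure D1:**
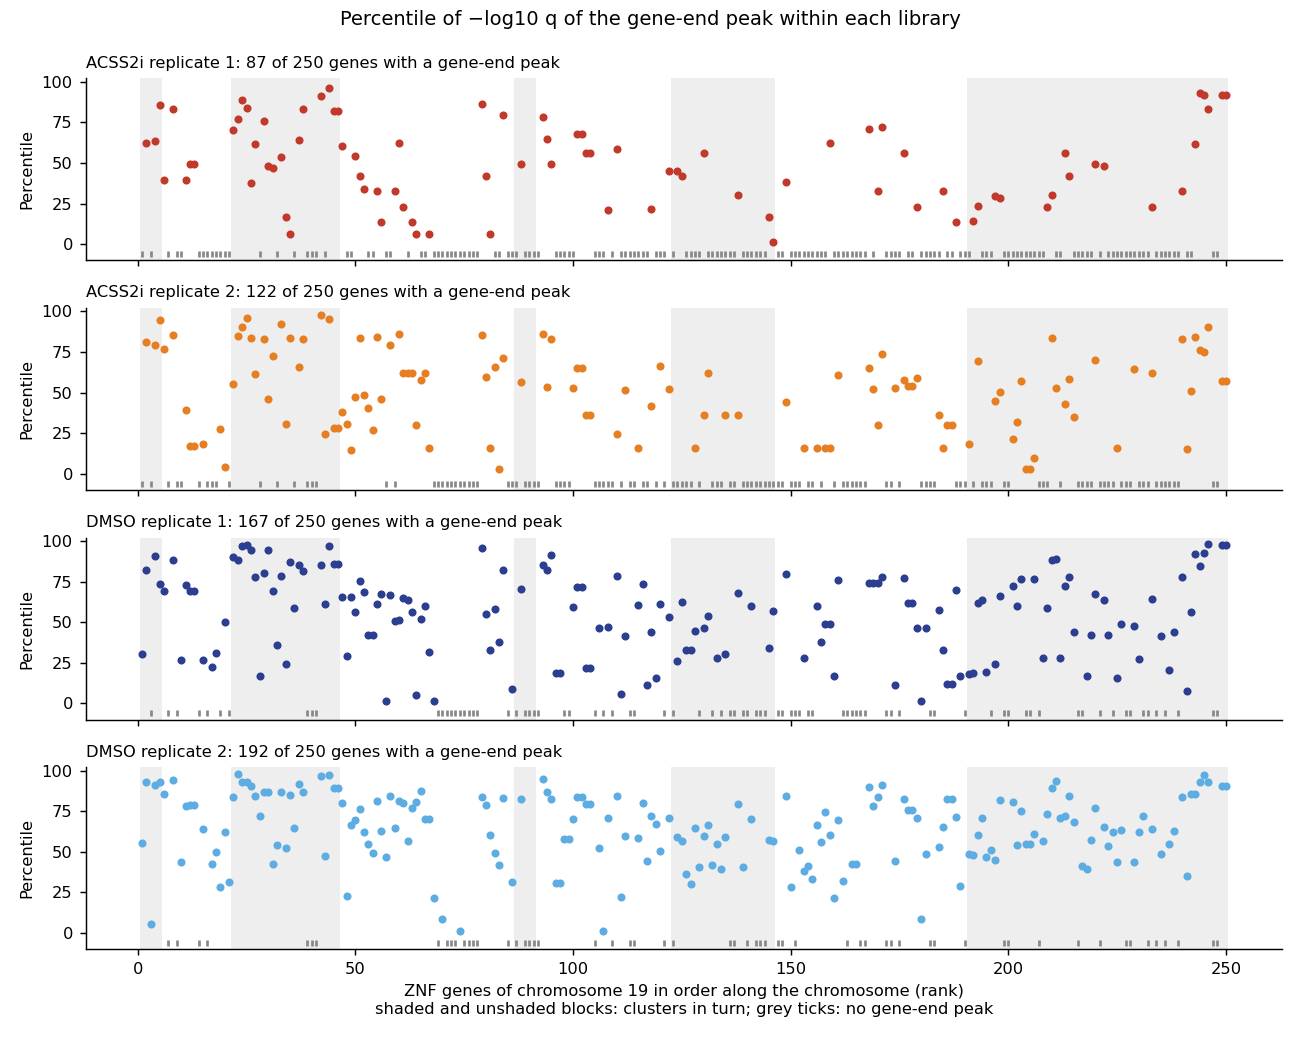
Percentile of −log10 q of the gene-end peak (vertical axis, within each library) for the 250 ZNF genes in order along chromosome 19 (horizontal axis, rank), with 1 panel per library. Grey ticks mark genes without a peak, which were 163 and 128 genes in the ACSS2i panels and 83 and 58 in the DMSO panels, and the block from ZNF208 to ZNF730 stands out as nearly empty in all 4.

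Member peaks sat at the transcription start. Where the strand was known, the counted peak lay at the start end for 74 of 77 and 107 of 109 members in ACSS2i and for 149 of 152 and 168 of 173 in DMSO, at least 96.1% in each library, while the share for other chromosome 19 genes was 85.1% to 88.1%. The median distance from summit to nearest annotated start was 105 and 87 bp in ACSS2i and 81 and 68 bp in DMSO for members, against 279 and 230 bp in ACSS2i and 248 and 194 bp in DMSO for the other genes. Member peaks were also narrower, with median widths of 443 and 530.5 bp in ACSS2i and 649 and 843.5 bp in DMSO, against 506 and 564 bp in ACSS2i and 772 and 974 bp in DMSO. A counted peak also lay within the window of another protein-coding gene for 14.97% to 19.5% of members with a peak and for 41.5% to 44.8% of other genes with one. Of the 167 members called in DMSO replicates 1 and 2 alike, the DMSO peaks overlapped at 163, so they were nearly always the same site.

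Of these 167 members, 77 (46.1%) had a peak in all 4 libraries and are called kept, 52 had one in 1 ACSS2i library and 38 in neither. The last pattern is called lost, and both names describe calls, not a test. The kept share was 58.0% over all protein-coding genes with both DMSO peaks, 55.7% over other chromosome 19 genes and 57.4% over ZNF genes of other chromosomes. These kept shares were not matched on strength. The 38 lost members are 22.8% (exact 95% interval 16.6% to 29.9%, counting error only) of the 167, against 18.9% of the 10471 protein-coding genes called in DMSO replicates 1 and 2 alike and 26.7% of the 569 other such genes of chromosome 19. Of the 52 members in between, 42 had their peak in ACSS2i replicate 2 and 10 in ACSS2i replicate 1. Over all genes the split was uneven in the same way, with 2007 of 2417 in ACSS2i replicate 2 and 410 in ACSS2i replicate 1. Every member with a peak in DMSO replicate 1 also had one in DMSO replicate 2, which had 25 more. No member had a peak in ACSS2i without a DMSO peak, and over all genes the share with a peak in both ACSS2i libraries among the 7950 with no DMSO peak was 0%. The remaining 58 members were without a gene-end peak in all 4 libraries.

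Loss followed the strength of the DMSO peak. Strength is the lower of the 2 DMSO percentiles, and its median over genes with both DMSO peaks was 56.3 for members and 63.7 for other chromosome 19 genes. In the weakest quintile of strength on the chromosome 24 of 41 members (58.5%) and 75 of 106 other genes (70.8%) were lost. In the second quintile 10 of 35 members (28.6%) and 51 of 111 others (45.9%) were lost, and in the third 3 of 38 members (7.89%) and 20 of 111 others (18.0%). In the top quintile 0 of 23 members and 1 of 126 others were lost. Weighted to the members' own spread over the quintiles, the other genes lost 32.0%, and the members lost 9.24 percentage points less.

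That difference rested on 1 library. Members were missing from ACSS2i replicate 2 less often than other chromosome 19 genes of like strength, 28.7% against 38.4%, but from ACSS2i replicate 1 slightly more often, 47.9% against 45.5%. Over all genes with both DMSO peaks the missing share was 38.1% in ACSS2i replicate 1 and 22.8% in ACSS2i replicate 2. With ACSS2i replicate 2 left out, 80 of 167 members were lost and the difference from other genes of like strength turned to 2.44 points. Without DMSO replicate 1, 60 of 192 members were lost (31.25%, beside 28.5% of all genes), and the difference was -10.4 points. The comparison also mattered: against all other protein-coding genes of like strength, which lost 24.7%, the members differed by -1.96 points, while the 188 ZNF genes of other chromosomes with both DMSO peaks, weighted likewise, lost 32.1%. With −log10 q of at least 4 the difference from other chromosome 19 genes was -5.10 points, and at the start end alone it was -5.94. No test of these shares was made, because genes are not replicates of a condition.

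**Figure D2:**
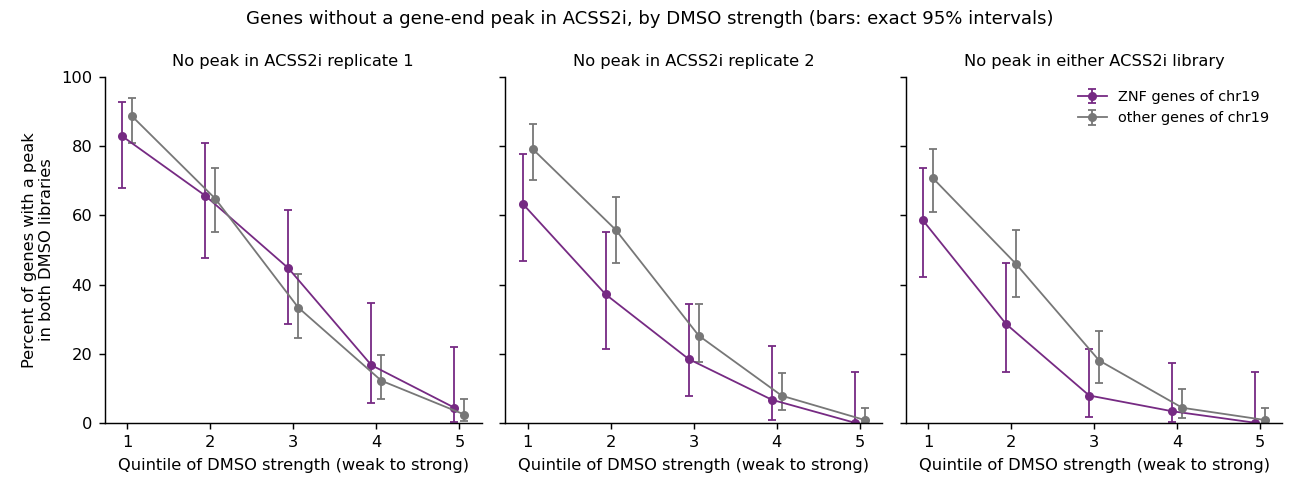
Percent of genes with both DMSO peaks that had none in ACSS2i replicate 1, in ACSS2i replicate 2 or in neither of them (vertical axis), by quintile of DMSO strength (horizontal axis), for ZNF genes and other genes of chromosome 19, with exact 95% intervals. In the second quintile 65.7% of ZNF genes against 64.9% of other genes were missing from ACSS2i replicate 1, and 37.1% against 55.9% from ACSS2i replicate 2.

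Clusters differed in how many members were accessible and how many stayed so. In the cluster from ZNF653 to ZNF791 (chromosome 19, 11483429 to 12633834), 22 of 25 members had both DMSO peaks, with a median strength of 84.1, and 18 of the 22 had one in all 4 libraries. The 3 lost there were ZNF439, ZNF433 and ZNF625, and 3.28 would be lost at the rate of other chromosome 19 genes of like strength. Among the 18, ZNF653 had its counted peak at the start end except in ACSS2i replicate 1. There the peak lay at the other end of the gene, with its summit 23508 bp from the nearest annotated start. Median fold enrichment in this cluster was 5.71 and 5.78 in ACSS2i and 8.11 and 10.6 in DMSO. The fold is the authors' enrichment of the summit over local background within its own library.

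The cluster from ZNF101 to ZNF254 (19668153 to 24129968) holds ZNF91 and ZNF93, whose human proteins are known to silence SVA and L1 elements. There 2 of 27 members with both DMSO peaks were lost, ZNF626 and ZNF43, against 9.04 at the rate of other genes of like strength. The ACSS2i libraries differed here: 12 of the 27 were missing from ACSS2i replicate 1 (13.3 at the rate of other genes) and 3 from ACSS2i replicate 2 (11.1). ZNF91 had folds of 4.82 and 5.26 in ACSS2i and 6.42 and 10.9 in DMSO, and ZNF93 had 4.39 and 4.57 in ACSS2i and 6.68 and 7.62 in DMSO. Both genes thus had lower folds in both ACSS2i libraries than in either DMSO library. Both were picked for their known role and not by the rule for named genes.

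Inside this cluster 10 neighbours in a row, from ZNF208 to ZNF730 (21939815 to 23147221), lacked a peak in at least 1 DMSO library. Of these, 8 were without a peak in all 4 libraries, and ZNF257 and ZNF492 had one in DMSO replicate 2 alone. The next member along, ZNF724 (23221599 to 23250394), was the strongest of the cluster, with folds of 7.25 and 6.75 in ACSS2i and 12.7 and 11.6 in DMSO. No other run of such members was longer than 6, namely the one from ZNF480 to ZNF578 (52297169 to 52516882), of which 3 had no peak in any library. In the small cluster from ZNF302 to ZNF792, 4 of 5 members had no peak in any library, and ZNF181 alone was accessible, with folds of 5.13 and 4.73 in ACSS2i and 7.44 and 10.9 in DMSO.

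The clusters further along, on the long arm, had smaller shares of kept members than the cluster from ZNF653 to ZNF791 on the short arm. From ZNF628 to ZNF446 (55476617 to 58489533), the largest cluster with 60 members, 12 of 41 were lost (13.1 at the rate of other genes of like strength) and 15 had a peak in all 4 libraries. From ZNF175 to ZNF331 (51571283 to 53580269), 5 of 24 were lost (8.73) and 7 were in all 4. From ZNF575 to ZNF296 (43530835 to 45076478), 4 of 13 were lost (5.57) and 2 were in all 4, ZNF155 and ZNF226. From ZNF565 to ZNF573 (36182060 to 37779586), 6 of 18 were lost (6.25) and 8 were in all 4. Median strength was 58.9, 48.9, 44.8 and 52.8 in these clusters, below the 84.1 of the cluster from ZNF653 to ZNF791.

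Nearer the start of the chromosome, the cluster from ZNF557 to ZNF846 (7069703 to 9786160) lost 3 of 10, against 3.88 at the rate of other genes of like strength. The cluster from ZNF554 to ZNF77 (2819868 to 2944971) lost ZNF554 of 4. Several of these counts turn on single libraries, and for some the side relative to other genes of like strength turns with them. Without ACSS2i replicate 2 the losses were 16 of 24 for ZNF175 to ZNF331 (12.3 at the rate of other genes), 23 of 41 for ZNF628 to ZNF446 (18.4) and 9 of 18 for ZNF565 to ZNF573 (8.69), each above that rate and not below it as in the full set. They were 12 of 27 for ZNF101 to ZNF254 (13.3), 7 of 13 for ZNF575 to ZNF296 (7.81) and 5 of 10 for ZNF557 to ZNF846 (5.34). Over all genes 38.1% were missing from ACSS2i replicate 1. Without ACSS2i replicate 1 the losses were 8 of 13 for ZNF575 to ZNF296 (6.67) and 3 of 27 for ZNF101 to ZNF254 (11.1), beside 22.8% of all genes. Without DMSO replicate 1 they were 12 of 31 for ZNF175 to ZNF331 (15.3), 8 of 17 for ZNF575 to ZNF296 (10.2), 9 of 21 for ZNF565 to ZNF573 (8.67), 4 of 29 for ZNF101 to ZNF254 (11.98) and 2 of 5 for ZNF554 to ZNF77 (1.48). In that setting 28.5% of all genes were lost.

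**Figure D3:**
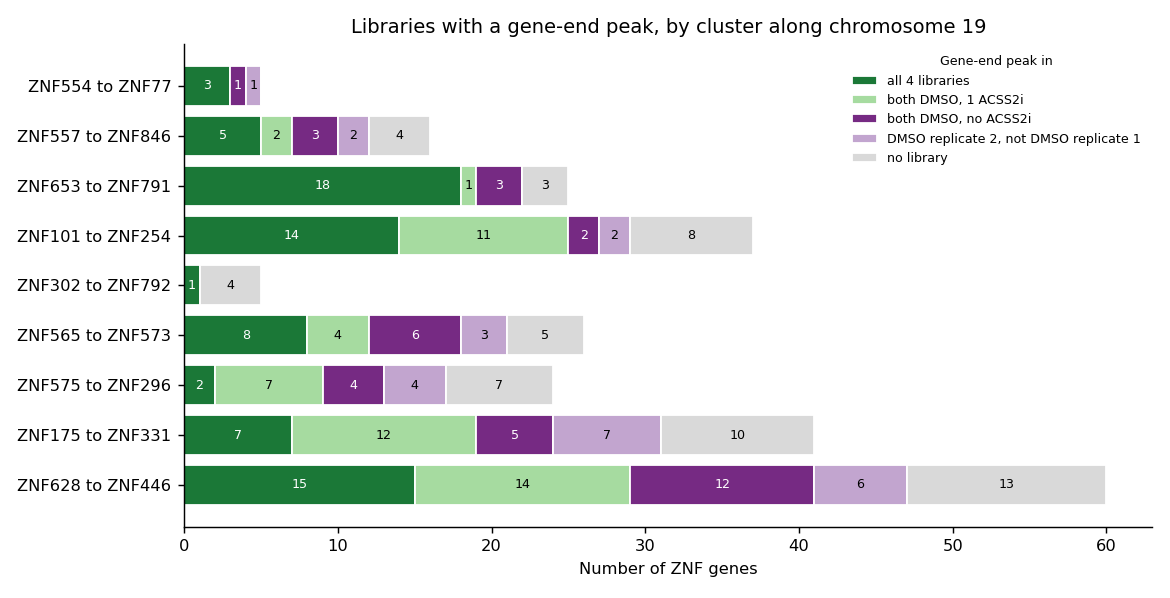
Number of ZNF genes (horizontal axis) in each of the 9 clusters in order along chromosome 19 (top to bottom), split by the libraries in which a gene-end peak was present. Peaks in all 4 libraries make up 18 of 25 genes from ZNF653 to ZNF791 and 2 of 24 from ZNF575 to ZNF296.

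Among members with a peak in all 4 libraries, the strongest in DMSO were ZNF564, ZNF584, ZNF823, ZNF441, ZNF837 and ZNF57. The products of such genes are zinc finger proteins whose individual targets are mostly not settled, and no role is given for them here. ZNF564 (12525373 to 12551482) had folds of 8.35 and 6.92 in ACSS2i and 9.83 and 11.4 in DMSO. Its summit stood on 37 and 49 overlapping fragments in ACSS2i, against 62 and 128 in DMSO, with exact 95% Poisson intervals of 26.1 to 51.0 and 36.3 to 64.8 in ACSS2i and 47.5 to 79.5 and 107 to 152 in DMSO. Fragments here are units of the summit pileup solved from the fold and p-value of the peak. The calling options, which set what a unit counts, are not stated. Both ACSS2i folds were below both DMSO folds, yet the peak ranked at percentile 96.3 and 95.01 in ACSS2i and 97.1 and 97.6 in DMSO. ZNF584 (58401558 to 58418327) had folds of 6.62 and 6.57 in ACSS2i and 10.8 and 10.9 in DMSO, and ZNF441 (11767000 to 11784078) had 6.78 and 7.68 in ACSS2i and 10.3 and 10.7 in DMSO.

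ZNF823 (11721265 to 11738946) had folds of 6.74 and 6.69 in ACSS2i and 9.55 and 10.1 in DMSO. ZNF837 (58367623 to 58381030) had 7.29 and 5.03 in ACSS2i and 8.37 and 11.9 in DMSO. ZNF57 (2900928 to 2918473) had 5.61 and 6.01 in ACSS2i and 10.2 and 12.1 in DMSO. In all 6 genes the ACSS2i folds did not overlap the DMSO folds, as was so for 68 of the 77 members (88.3%) and 84.4% of all genes with a peak in all 4 libraries. ZNF146 (36214723 to 36238768), which encodes a protein made almost wholly of zinc fingers, led its cluster with 6.31 and 6.54 in ACSS2i and 8.09 and 12.6 in DMSO, and ZNF414 led the cluster from ZNF557 to ZNF846 with 6.27 and 5.02 in ACSS2i and 7.78 and 10.9 in DMSO. ZNF611 and ZNF226 led the clusters from ZNF175 and from ZNF575. ZNF611 had 6.33 and 5.91 in ACSS2i and 7.48 and 11.6 in DMSO, and ZNF226 had 4.41 and 4.32 in ACSS2i and 7.50 and 11.997 in DMSO.

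The strongest lost members were ZNF607, ZNF865, ZNF235, ZNF625, ZNF551, ZNF585A, ZNF347 and ZNF606. None had a gene-end peak in ACSS2i replicate 1 or 2. ZNF607 (37696363 to 37719761) had folds of 8.43 and 12.8 in DMSO, on 27 and 51 fragments at the summit (exact 95% Poisson intervals 17.8 to 39.3 and 38.0 to 67.1), and ranked at percentiles 73.7 and 80.3. Its DMSO folds were thus as high as those of the kept member ZNF146. By fragments and rank ZNF607 was weaker, since ZNF146 held 41 and 96 fragments in DMSO and ranked at percentiles 85.4 and 94.5. ZNF865 (55605647 to 55617269) had folds of 6.03 and 7.43 and ZNF235 (44286348 to 44305025) 7.15 and 10.8 in DMSO. ZNF625 had 6.67 and 9.14 and ZNF551 6.28 and 8.82 in DMSO. ZNF585A had 6.21 and 9.06, ZNF347 had 6.21 and 8.08, and ZNF606 had 5.89 and 9.37 in DMSO.

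Most lost members were weaker than these. Over the 38, the median DMSO percentile was 27.9 in replicate 1 and 51.1 in replicate 2, against 74.4 and 83.6 over the 77 kept members, and the median summit held 14 and 27.5 fragments against 31 and 63. The smallest summits that the lists contain held 11 and 12 fragments in ACSS2i and 9 and 8 in DMSO, so the median lost member in DMSO replicate 1 stood only a few fragments above the lowest peaks listed. When the lists were reduced to 16400 peaks, 4 of 75 members with both DMSO peaks were lost (5.33%), against 5.29% of all genes. These were ZNF607, ZNF235, ZNF865 and ZNF583, of which the first 3 were also lost in the full lists. ZNF583 kept a peak in ACSS2i replicate 2 in its full list, with a fold of 3.66, against 7.87 and 11.7 in DMSO. In the opposite direction ZNF844, ZNF155 and ZNF580 had a peak in both ACSS2i libraries alone, 3 of 139 members with no DMSO peak at that length (2.16%), against 0.851% of all genes. All 3 had a peak in all 4 full lists, and the counted peak of ZNF580 in DMSO replicate 2 lay at the other end of the gene.

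**Figure D4:**
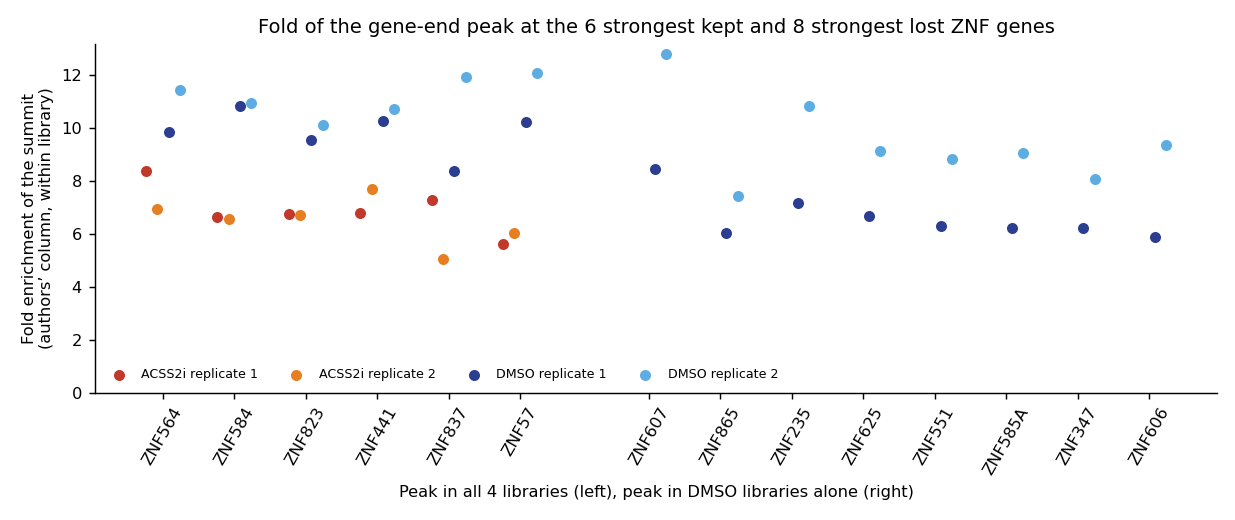
Fold enrichment of the gene-end peak (vertical axis, the authors' values, each within its own library) in the 4 libraries for the 6 strongest kept and the 8 strongest lost ZNF genes (horizontal axis). Points for ACSS2i are missing where no peak was listed; ZNF607 reaches 12.8 in DMSO replicate 2 with no ACSS2i point.

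Ranks within a list moved down after ACSS2i in the full lists and not at equal length. For the 77 members with a peak in all 4, the median percentile was 56.4 and 62.3 in ACSS2i and 74.4 and 83.6 in DMSO, and the median difference, ACSS2i minus DMSO, was -19.4 points, against -18.2 for other chromosome 19 genes and -18.6 for all genes. A longer list adds weak peaks below a site and so raises its percentile, so the difference shows no change of accessibility by itself. Within lists of 16400 peaks the median difference over 56 members was 2.59 points. The largest falls were at ZNF83 (percentiles 32.9 and 29.9 in ACSS2i, 74.4 and 83.6 in DMSO), ZNF700 (48.0 and 46.0 in ACSS2i, 94.7 and 87.0 in DMSO) and ZNF559 (49.2 and 17.4 in ACSS2i, 69.1 and 79.1 in DMSO). The largest rises were at ZNF430 (62.5 and 85.9 in ACSS2i, 51.2 and 81.0 in DMSO), ZNF77 (85.6 and 94.6 in ACSS2i, 73.5 and 93.2 in DMSO) and ZNF763 (46.9 and 72.4 in ACSS2i, 69.1 and 42.5 in DMSO). In the last 3 genes the ACSS2i and DMSO percentiles overlapped.

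The number of fragments at the summit, divided by the lowest background level of its library, gave the same order of libraries. That level was 2.32 and 3.16 in ACSS2i and 2.06 and 1.75 in DMSO, so the divisor also differed between the groups. Before division the median summit of the 77 members held 17 and 25 fragments in ACSS2i and 31 and 63 in DMSO. Over the 77 members the median was 7.34 and 7.90 times background in ACSS2i and 15.1 and 36.0 times in DMSO, against 9.499 and 9.80 in ACSS2i and 19.9 and 46.3 in DMSO for other chromosome 19 genes. DMSO replicate 2 thus stood further above DMSO replicate 1 than replicate 1 stood above ACSS2i replicate 1. At 74 members neither ACSS2i value reached the lower DMSO value (96.1%), as at 99.6% of all genes with a peak in all 4 libraries. The 3 exceptions were ZNF738 and the divergent neighbours ZNF829 and ZNF568, which share a peak. That shared peak had 7.34 and 5.37 times background in ACSS2i and 6.32 and 29.2 times in DMSO, so only DMSO replicate 2 stood apart. ZNF568 is the human relative of a mouse gene known to silence a placental Igf2 transcript.

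Members that share a peak are not independent of each other. Of the 167, 27 had a DMSO peak that also lay in the window of another protein-coding gene, and 2 of these (7.41%) were lost, against 36 of the 140 others (25.7%). The 2 were ZNF529 and ZNF382, which stand head to head over a single peak. Among other chromosome 19 genes 65 of 262 with a shared peak (24.8%) and 87 of 307 without (28.3%) were lost. When both sides were limited to genes that share no peak, the difference at like strength was -5.39 points. The set also holds 3 readthrough genes, ZNF559-ZNF177, ZNF816-ZNF321P and ZNF765-ZNF761, and the entry ZNF470-DT, each of which was counted through the same peak as a neighbouring member.

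Member promoters held some short words more often, and others less often, than other promoters did, with no test made. Promoters were found for 219 of the 250 members in the RefSeq table. The ETS word CCGGAAG was in 67 member promoters (30.6%), against 11.3% of 966 other chromosome 19 promoters and 11.8% of all 15843 protein-coding promoters of the same length. The word CCAAT, bound by NF-Y, was in 51.1% against 36.5% and 34.5%, and the Sp and KLF word GGGCGG in 64.8% against 63.5% and 55.8%. The word ACGTG, the core of the HIF response element, was in 14.6% against 20.9% and 20.7%, and TATAAA in 2.28% against 7.66% and 9.35%. TGANTCA (AP-1) was in 6.85% of member promoters, GCATGCG (NRF1) in 5.02%, AAGATGG (YY1) in 4.57% and CGCGAGA in 3.20%, against 5.00%, 4.52%, 3.38% and 4.15% of all promoters. Words were read on both strands and may overlap, and a word is a match of letters and not evidence of binding.

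**Figure D5:**
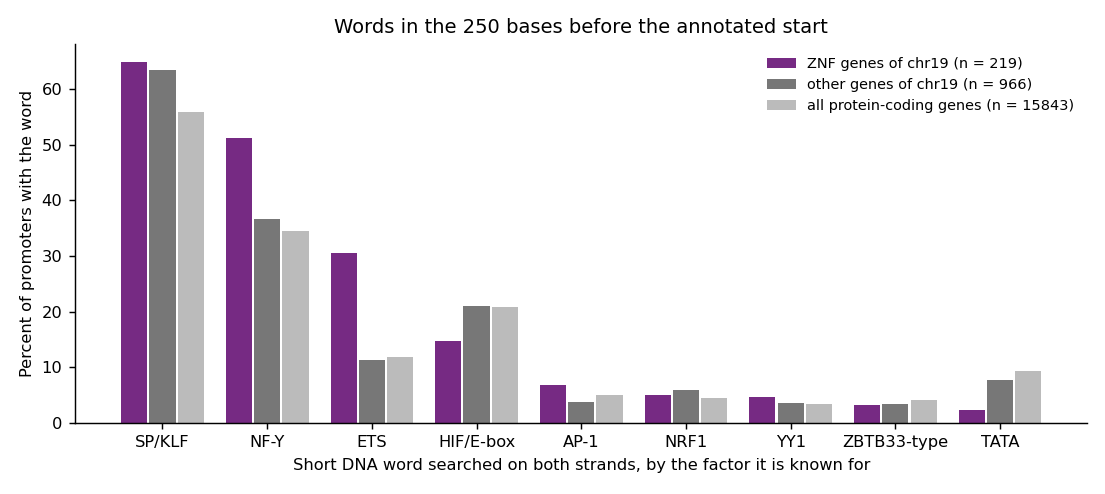
Percent of promoters (vertical axis) that hold each of 9 short words in the 250 bases before the start, on either strand, for ZNF genes of chromosome 19, other genes of the chromosome and all protein-coding genes. The words are named by the factor they are known for, and the ETS word stands at 30.6% in ZNF genes against 11.3% in other genes of the chromosome.

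Kept, lost and uncalled members had promoters of much the same CpG content. The median number of CpG steps in 250 bases was 16 in members lost, 16 in members with a peak in all 4 libraries and 14.5 in members with no peak in any library. Other chromosome 19 genes had medians of 19 when lost, 21.5 with a peak in all 4 and 7 with no peak. The word CCAAT was in 18 of 36 lost and 42 of 67 kept member promoters, and in 31.7% of lost and 50.7% of kept promoters of other chromosome 19 genes. The ETS word was in 30.6% of lost and 32.8% of kept member promoters. With 36 lost and 67 kept member promoters, these shares are descriptions of the sets.

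Genes linked to KRAB repression and heterochromatin were read from a list of 28. The list is wider than the partners of TRIM28, since it also holds CTCF and KDM4A. Both of these, and TRIM24, had a peak in all 4 libraries. Gene-end peaks were present at 13 and 17 of the 28 in ACSS2i and at 26 and 27 in DMSO. Of the 26 with both DMSO peaks, 12 had a peak in all 4 libraries, 6 in 1 ACSS2i library and 8 in neither (30.8%, beside 18.9% of all genes, not matched on strength). TRIM28, which lies near the end of the long arm of chromosome 19 (58544064 to 58550715), had folds of 7.24 and 5.98 in ACSS2i and 8.11 and 10.3 in DMSO. SETDB1 had a fold of 3.40 in ACSS2i replicate 1 and no peak in replicate 2, against 3.60 and 5.12 in DMSO. The 8 lost genes were ATF7IP, a partner of SETDB1, the methyltransferase genes SUV39H1, EHMT1, EHMT2 and DNMT3A, the HUSH complex genes TASOR and PPHLN1, and ATRX. Among the 12 with a peak in all 4 libraries were SUV39H2, DNMT1, CBX1, CBX3, CBX5 and HDAC1. MPHOSPH8 was among the 6 with a peak in 1 ACSS2i library. ZNF274, whose human protein brings SETDB1 to the 3′ ends of ZNF genes, had no peak in ACSS2i replicate 1 and a fold of 3.36 in replicate 2, against 3.54 and 5.80 in DMSO, and was picked for that role. Its counted peak in DMSO replicate 1 lay 707 bp from the end of the gene span.

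Few members had a peak near the 1000 bp limit of the window. The counted peak nearest the limit on the inside was at ZNF544 in DMSO replicate 2, at 925 bp, beyond the end of the gene. The next was at ZNF296 in ACSS2i replicate 1, at 889 bp, and the nearest peak outside was at ZNF579 in ACSS2i replicate 2, at 1078 bp. Of markers for the line, 5 and 9 of 10 had a gene-end peak in ACSS2i and 9 and 9 in DMSO, with PAX2 in none. Of 11 markers of immune, endothelial, neuronal and muscle cells, 0 and 0 had one in ACSS2i and 1 and 2 in DMSO, namely SNAP25 in both DMSO libraries and CD14 in DMSO replicate 2.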

How the data were processed

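The 4 libraries of 786-O cells were taken as peak lists and grouped by the treatment in the labels. The submitters' processing notes name Trimmomatic 0.38, Bowtie2, SAMtools 1.9, Picard 2.18.26, MACS2 2.1.2 and the build hg38; options, the Tn5 shift, duplicate handling and the filter behind the lists are not stated in these sources. Peaks were called per library, as the deposited peak names show. The deposited fold column is the ratio of the summit over local background, the deposited −log10 columns hold the p-value and the q-value, and the deposited score, 10 times −log10 q as a whole number in all 4 lists (within 1), was not used. Every deposited −log10 q was at least 2.

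Rows with the same interval were joined into 1 peak with the values of its strongest summit. The percentile is the rank of −log10 q within a library. Fold and −log10 p gave, by a Poisson model, a whole-number summit pileup and its background, within 0.001 for at least 99.99% of rows; read totals were not used here. Intervals are exact (binomial or Poisson, 95%) and cover counting error only. Gene spans and promoters came from RefSeq tables of GRCh38.p14. A strand was known for 219 of 250 members.

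Genes were named by a rule: the 6 strongest kept and 8 strongest lost members, the 3 largest rises and falls of percentile, the strongest member of each cluster and those at the window limit; promoters shown were the 3 strongest kept and 3 strongest lost, and ZNF441 was added afterwards. The members and lists were chosen with earlier results of these data known. The planned protein features were not run. Python 3.11.15, scipy 1.17.1 and pandas 2.3.3 were used, and the matching and the pileup solution were tested on simulated data. The labels give both groups replicate numbers 1 and 2, with nothing that ties equal numbers together.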

Additional observations from a re-analysis of the deposited data

How the results depend on the processing

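Alternatives were a window of 500 or 2000 bp, −log10 q of at least 4, summits inside the window, lists of equal length, the start end alone, each library left out, deciles of strength, the mean DMSO percentile, genes without shared peaks and, chosen after seeing the data, other comparison genes or the members outside ZNF101 to ZNF254. At equal list length the difference in member counts was -0.5 (exact permutation p = 1), the lost members numbered 4, those in ACSS2i alone 3, the difference at like strength was -1.39 points and the percentile difference turned to 2.59. Leaving out 1 library gave 38 to 80 lost members, with 60 without DMSO replicate 1 and 80 without ACSS2i replicate 2. It gave differences at like strength of -10.5 to 2.44 points, positive without ACSS2i replicate 2, and percentile differences of -22.6 to -11.8. Against all other protein-coding genes the difference was -1.96 points. It was -5.10 with −log10 q of at least 4, -5.94 at the start end alone and -5.39 without shared peaks, and lay between -10.9 and -6.31 under the other alternatives. With a replicate block, pairing libraries by number, the mean difference in member counts was -75 as without it (exact sign-flip permutation p = 0.5). The smallest summits listed held 8 to 12 fragments, and read depth was not measured here. The cause of these shifts was not tested.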
